A study of Homo sapiens with 6 samples.

Results

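The molybdenum cofactor genes were examined in HK-2 cells, a human proximal tubular cell line, after knockdown of INO80, the ATPase of a chromatin remodeling complex. They are 8 of the 57905 genes in the deposited table. GPHN was chosen by its fall under INO80 siRNA in these libraries, so its level is given as a description and is not tested. The other 7 were chosen by function, as the remaining genes of cofactor synthesis (MOCS1, MOCS2, MOCS3 and MOCOS) and as enzymes that need the cofactor (SUOX, AOX1 and XDH). RNA was sequenced in 3 libraries after transfection of a non-targeting siRNA pool (control siRNA) and in 3 libraries after transfection of a pool directed at INO80 (INO80 siRNA). All cells were of 1 immortalized line without an engineered allele (labelled WT) and were harvested 48 h after transfection. The line was cultured in serum-containing medium and transfected with the use of Opti-MEM. The paper does not state the medium between the INO80 transfection and harvest. The sources used here do not say whether libraries of a group came from separate cultures, so the p-values measure the spread between these libraries, which may be technical.

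Molybdenum is used by human enzymes only when bound to a small pterin cofactor. MOCS1 makes the first stable intermediate from GTP. MOCS2 encodes both subunits of molybdopterin synthase, which adds sulfur to that intermediate. MOCS3 loads the sulfur onto the small subunit. Gephyrin, the product of GPHN, then activates molybdopterin and inserts the metal, and in neurons the same protein holds glycine and GABA type A receptors at inhibitory synapses. MOCOS adds a final sulfur that aldehyde oxidase (AOX1) and xanthine dehydrogenase (XDH) require, whereas sulfite oxidase (SUOX) and the mitochondrial amidoxime reducing components work without that step.

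Between 16829273 and 20311588 reads were counted on genes in the control siRNA libraries, and between 20678008 and 23784599 in the INO80 siRNA libraries. A count of 0 allows up to 3 counts, for counting error only. INO80 itself was lower in the libraries labelled INO80 siRNA, at 0.267 times the control level (edgeR, log2 fold change -1.90 with a standard error of 0.0956, adjusted p = 0.000161). Deviations from the group means were shared between libraries of equal replicate number, most closely for replicate 1 (correlation across genes 0.569). Replicate 1 correlated with replicates 2 and 3 of the other group at -0.39 to -0.36. Deviations sum to 0 within a group, so these negative values follow from the positive one. In view of the shared deviations, results are given also with the replicate number as a block, or without replicate 1, where a call changes. Of 14 proximal tubule markers, 5 passed the count filter, among them GGT1, PAX8 and SLC5A2, and 3 had no count in any library (SLC22A6, SLC22A8 and HNF4A). LRP2, which encodes megalin, had a mean of 0.167 counts. The summed level of the 14 markers was 105.2 to 112.6 FPKM under control siRNA and 109.2 to 115.6 FPKM under INO80 siRNA. For 4 epithelial markers the sums were 158.0 to 188.2 and 164.2 to 186.8 FPKM, with CDH1 near 0, and the members did not move together. EPCAM was lower in every INO80 siRNA library (log2 fold change -0.31, edgeR adjusted p = 0.114), and it was called by DESeq2, with the replicate block and without replicate 1. KRT18 was at 0.19 and was called higher only with the block among these fits. The block also called PAX8 lower (-0.11). For 6 neuronal markers they were 7.45 to 8.31 and 6.89 to 8.52 FPKM, most of it from TUBB3, and all 4 that were tested had a log2 fold change below 0 (median -0.37, none called). For 2 fibroblast markers the sums were 4.17 to 4.72 and 4.78 to 6.07 FPKM, nearly all from COL1A1, which had a log2 fold change of 0.33 (adjusted p = 0.214, edgeR) and was called higher with the block. The part of these markers in the results was not tested. No library exceeded 0.03 FPKM for the 2 endothelial, 1 leukocyte and 2 hepatocyte markers listed.

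GPHN (ENSG00000171723) spans 674.4 kb on the plus strand of chromosome 14, from 66974125 to 67648520 in GRCh37 coordinates. In control siRNA replicates 1, 2 and 3 it was counted 215, 320 and 312 times, and in the INO80 siRNA replicates 130, 184 and 181 times. Scaled to CPM, the usual unit of counts relative to library size (here after TMM normalization), these were 13.1, 15.7 and 16.1 CPM under control siRNA and 6.47, 7.62 and 7.47 CPM under INO80 siRNA. The groups did not overlap, and replicate 1 was the lowest library of each. The means were 14.97 ± 1.63 and 7.19 ± 0.627 CPM (SD, n = 3 each), a ratio of 0.480. The log2 ratio was -1.02, -1.04 and -1.11 in replicate pairs 1, 2 and 3. The fitted log2 fold change was -1.06 (standard error 0.129), the 63rd lowest of 15343 genes tested. The limits that chose it were an adjusted p under 0.05 in edgeR together with a fitted value of -1 or lower, which 14 genes met. Just inside the fold limit stood GPHN and PLA2G15 (-1.04), and just outside stood BCL2L2 (-0.98) and RASSF3 (-0.92).

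The count of GPHN was little exposed to other genes. In the table, 3 genes overlap its span, and the most counted of them, the antisense gene RP11-72M17.1, had at most 4 counts in any library. The other 2 had 0 counts in every library.

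**Figure D1:**
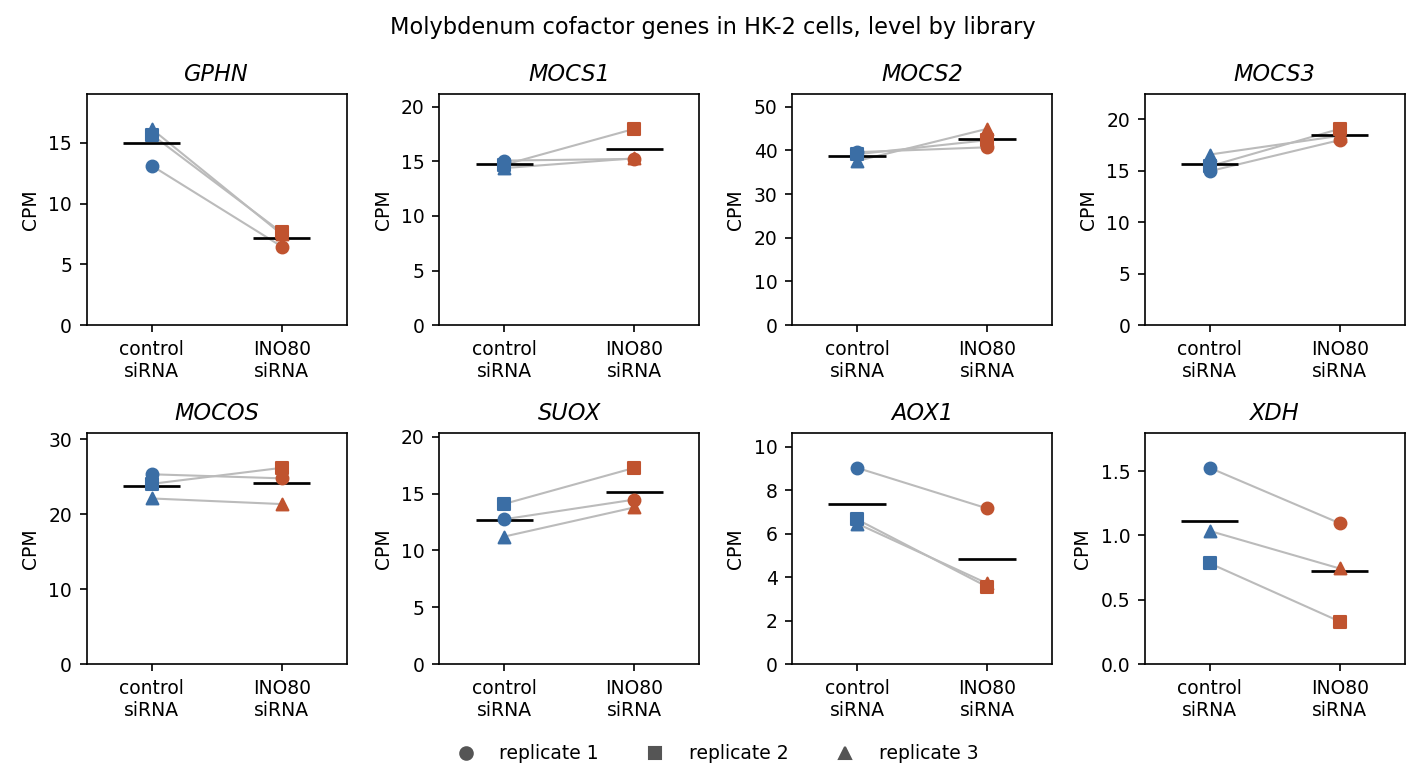
Level of each of the 8 cofactor genes in CPM (y axis, from 0, scaled per gene) in the control siRNA and INO80 siRNA libraries (x axis), with marker shapes for replicates 1 to 3, grey lines joining equal replicate numbers and black bars for group means. GPHN falls from 14.97 to 7.19 CPM on average, MOCS3 lies higher in every INO80 siRNA library, and AOX1 is highest in replicate 1 of both groups.

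A stretch of 7 letters in the GPHN transcript is shown because an earlier analysis of these same libraries found transcripts that carry it to be lower under INO80 siRNA, a choice that makes it no independent evidence. The letters AACGGCA were searched on the sense strand of the Ensembl canonical transcript of each gene (GENCODE 44, hg38), and 12670 of the 15343 genes tested had a coding one. They occur once in the 3′ untranslated region of GPHN, in exon 23 of 23, at chr14:67181003-67181009 on the plus strand. They also occur 3 times in the coding sequence of INO80, on the minus strand of chromosome 15, in exons 6, 21 and 32 of 36. The sites are written 5′ to 3′ with 9 bases on each side in lower case and the 7 letters in capitals.
GPHN, 3′ untranslated region: gtaatatgcAACGGCAcagctagtt
INO80, exon 6, chr15:41087612-41087618: atgagcaacAACGGCAcctacttgg
INO80, exon 21, chr15:41049389-41049395: agttatttgAACGGCAagaaacttg
INO80, exon 32, chr15:40985399-40985405: aggaagagaAACGGCAacaggagga
The GPHN site shares an unbroken run of 9 letters with the site in INO80 exon 6, and 7 with each of the others. GPHN was the only one of the 8 cofactor genes whose canonical transcript held the letters. Over all genes with such a transcript, 1.83% held them in the 3′ untranslated region and 6.44% in the coding sequence only. The 232 genes of the first kind had a median log2 fold change of -0.10, against 0.02 in the 11571 genes without the letters. The median of the 816 genes with the letters in the coding sequence only was -0.06. GPHN was the fifth lowest of the 232, a rank that rests on the value that chose it. FDX1, named after its values were seen, also held the letters in its 3′ untranslated region and had a log2 fold change of 0.33. Of the listed genes called lower in edgeR below, URM1, CYB5B and SLC26A2 held them nowhere, and ENAH only in its coding sequence. A match is only a description, the sequences of the siRNA pool are not given in the sources used here, and the part of this stretch in the level of GPHN was not tested.

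None of the 3 nearest tested genes on either side of GPHN on chromosome 14 was called. The 3 nearest tested genes after its end were MPP5, ATP6V1D and EIF2S1, which begin 59.3, 112.6 and 178.2 kb beyond it. Their log2 fold changes were -0.06, 0.07 and 0.00, with 95% intervals from -0.21 to 0.08, from -0.06 to 0.20 and from -0.12 to 0.11. Before its start the nearest tested genes were YBX1P1, a pseudogene 493.6 kb away, FUT8 at 763.3 kb and MAX at 1404.7 kb, with log2 fold changes of -0.01, -0.07 and 0.11. None of these 6 had an adjusted p under 0.05 (edgeR, 0.528 to 0.989), with or without the replicate block, and none had an unadjusted p under 0.05 in edgeR without the block. Farther out, RAB15, named after its values were seen, had a log2 fold change of -0.44 (adjusted p = 0.0477, edgeR). FNTB, near RAB15 and also named after its values were seen, was at -0.50, with edgeR adjusted p-values of 0.186 without and 0.00691 with the replicate block.

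**Figure D2:**
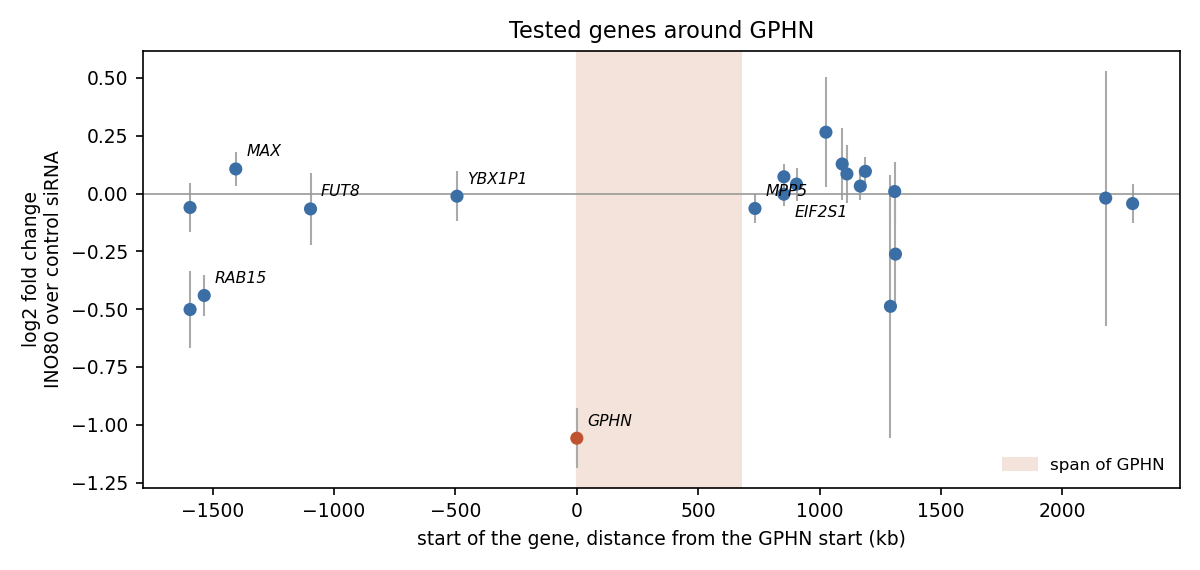
Log2 fold change between INO80 siRNA and control siRNA (y axis, edgeR, bars of 1 standard error) of the 21 tested genes whose midpoints lie within 2000 kb of that of GPHN, against the distance of their starts from the GPHN start in kb (x axis). GPHN lies at -1.06, and the nearest tested genes on both sides lie between -0.07 and 0.11.

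GPHN is one of 168 tested genes with a span of 500 kb or more. Their median log2 fold change was -0.14, with 118 of 168 below 0, while the median was -0.03 over 2488 genes of 100 to 500 kb and 0.02 over 12687 shorter genes. Among the 168 long genes GPHN had the second lowest log2 fold change after ANK3. Of these genes 2 were called lower, 1 of them GPHN, which is 1.19% against 1.39% of the genes under 100 kb and 2.01% of those of 100 to 500 kb. GPHN was chosen by its fold change and call, so its rank and its place in this count add no evidence. The part of gene span in the level of GPHN was not tested.

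Compared per length, GPHN was the sixth of the 8 genes with the deposited exonic lengths. FPKM is the count relative to exonic length in kb and to the library total. Under control siRNA the highest levels were those of MOCS2 at 6.42 ± 0.130 FPKM and MOCS3 at 6.34 ± 0.431 FPKM (SD, n = 3 each), whose libraries overlapped. MOCOS followed at 3.77 ± 0.206 FPKM, apart from both neighbours in the order. MOCS1 at 2.83 ± 0.0265, SUOX at 2.52 ± 0.287 and GPHN at 2.48 ± 0.309 FPKM came next, with SUOX overlapping both of the others. AOX1 was at 1.32 ± 0.226 FPKM and XDH at 0.183 ± 0.0611 FPKM (SD, n = 3 each). Under INO80 siRNA, GPHN stood at 1.20 ± 0.133 FPKM, still between SUOX at 3.04 ± 0.401 and AOX1 at 0.860 ± 0.338 FPKM (SD, n = 3 each), and its libraries overlapped those of AOX1. GPHN made up 10.0%, 11.8% and 12.2% of the summed FPKM of the 5 synthesis genes in control siRNA replicates 1, 2 and 3, and 4.90%, 5.35% and 5.53% in INO80 siRNA replicates 1, 2 and 3. The order depends on the length used. With the canonical transcript length of GENCODE 44, an alternative chosen after seeing the data, GPHN was the third under control siRNA at 4.196 ± 0.528 on the same scale. It came after MOCS2 at 9.26 ± 0.185 and SUOX at 5.45 ± 0.626, and MOCS3 stood at 3.05 ± 0.206 (SD, n = 3 each). The counts were still those on the deposited gene models, with 6007 exonic bases for GPHN and 2458 for MOCS3. The canonical transcripts have 3557 and 5112 bases. Reads on MOCS3 bases outside the deposited model were not counted. This scale therefore sets counts and lengths of different gene models against each other and is not an equal alternative.

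None of the other synthesis genes was called lower. MOCS3 (ENSG00000124217, chromosome 20, 49575363 to 49577820) had 14.9, 15.4 and 16.6 CPM in control siRNA replicates 1, 2 and 3 and 18.0, 19.0 and 18.4 CPM in INO80 siRNA replicates 1, 2 and 3. Every INO80 siRNA library lay above every control siRNA library. Its log2 fold change was 0.24 (95% interval 0.04 to 0.44, adjusted p = 0.229, edgeR), and the adjusted p was 0.0319 with the replicate block.

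MOCS2 (ENSG00000164172, chromosome 5, 52391509 to 52405893) had 39.6, 39.1 and 37.6 CPM under control siRNA and 40.7, 42.3 and 44.9 CPM under INO80 siRNA. The groups did not overlap, and the log2 fold change was 0.14 (95% interval -0.02 to 0.29, adjusted p = 0.366, edgeR). A count per gene cannot tell its 2 reading frames apart. An antisense gene, CTD-2366F13.1, shares 222 bases with the span of MOCS2 and had 16 to 36 counts per library.

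MOCS1 (ENSG00000124615, chromosome 6, 39867354 to 39902290) had 15.1, 14.7 and 14.4 CPM under control siRNA and 15.2, 18.0 and 15.3 CPM under INO80 siRNA. The groups were separated by a narrow gap, with INO80 siRNA replicate 2 well above the rest. Its log2 fold change was 0.14 (95% interval -0.10 to 0.37, adjusted p = 0.574, edgeR).

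MOCOS (ENSG00000075643, chromosome 18, 33767482 to 33852120) had 25.3, 24.03 and 22.1 CPM under control siRNA and 24.8, 26.2 and 21.3 CPM under INO80 siRNA. The groups overlapped. The log2 fold change was 0.02 (95% interval -0.21 to 0.25, adjusted p = 0.958, edgeR), and its sign changed in 3 of 6 fits with a single library removed. For these 4 synthesis genes the 95% intervals end at or above -0.21, so a fall of the size seen in GPHN lies outside each of them.

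None of the 3 enzymes that use the cofactor was called in edgeR over all libraries with treatment only. SUOX (ENSG00000139531, chromosome 12, 56390964 to 56400425), which oxidizes sulfite to sulfate in mitochondria, had 12.7, 14.1 and 11.2 CPM under control siRNA and 14.5, 17.3 and 13.8 CPM under INO80 siRNA. It was higher under INO80 siRNA in each replicate pair, and the groups overlapped. Its log2 fold change was 0.26 (95% interval -0.04 to 0.56, adjusted p = 0.379, edgeR), and the adjusted p was 0.0325 with the replicate block.

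AOX1 (ENSG00000138356, chromosome 2, 201450591 to 201541787), which oxidizes aldehydes and aromatic heterocycles, had 148, 136 and 125 counts under control siRNA and 144, 86 and 90 counts under INO80 siRNA. In CPM these were 9.03, 6.66 and 6.47 under control siRNA and 7.16, 3.56 and 3.72 under INO80 siRNA. Replicate 1 was the highest library of both groups, and INO80 siRNA replicate 1 lay above control siRNA replicates 2 and 3. The log2 fold change was -0.62 (95% interval -1.27 to 0.02, adjusted p = 0.323, edgeR). It was -0.65 with the replicate block (adjusted p = 0.0011) and -0.85 without replicate 1 (adjusted p = 0.0345), both past the threshold, in fits that called 13.4% and 2.8% of all genes lower. With single libraries left out it ranged from -1.01 (without INO80 siRNA replicate 1) to -0.45 (without INO80 siRNA replicate 2), and none of those 6 fits called it.

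XDH (ENSG00000158125, chromosome 2, 31557187 to 31637581), which makes uric acid from hypoxanthine and xanthine, was counted 25, 16 and 20 times under control siRNA and 22, 8 and 18 times under INO80 siRNA. At this depth the log2 fold change of -0.63 had a 95% interval from -1.66 to 0.41 (adjusted p = 0.552, edgeR), an interval that holds both 0 and the value of GPHN. The mitochondrial amidoxime reducing components, which are molybdenum enzymes outside the 8 genes, had log2 fold changes of -0.18 (MTARC1, standard error 0.287) and -0.30 (MTARC2, standard error 0.354), with adjusted p of 0.813 and 0.738 (edgeR). Both were listed under symbols that had been turned into dates and were matched by Ensembl identifier.

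Over the 7 genes chosen by function, all passed the count filter and 0 were called at an adjusted p under 0.05 in edgeR, where 1.49% of all genes tested were called lower and 0.261% higher. One gene, MOCS3, had an unadjusted p under 0.05 in edgeR. DESeq2 also called 0, but gave XDH no adjusted p. Of the 13320 genes with an adjusted p, it called 3.61% lower and 0.968% higher. With the replicate block 1 was called lower (AOX1) and 2 higher (MOCS3 and SUOX), in a fit that called 13.4% of all genes lower and 11.4% higher. The INO80 siRNA libraries lay wholly above the control siRNA libraries in 3 of the 7, which was the case for 11.3% of all genes tested, and wholly below in 0 of the 7, against 11.5% of all genes. The median log2 fold change of all 8 was 0.08, against 0.01 over all genes tested. Without GPHN the summed FPKM of the synthesis genes was 19.1 to 19.6 under control siRNA and 20.4 to 22.8 under INO80 siRNA.

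**Figure D3:**
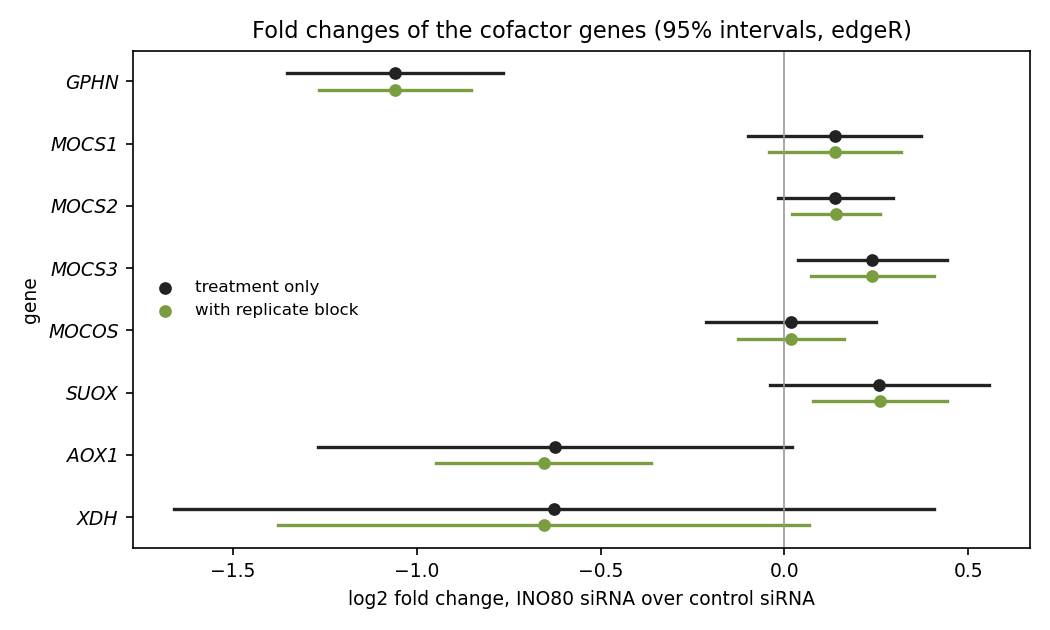
Log2 fold change of the 8 cofactor genes between INO80 siRNA and control siRNA (x axis), with bars for 95% intervals, in the edgeR fit with treatment only (black) and with the replicate block (green). GPHN, which was chosen by this value, lies at -1.06 in both, and with the block the interval lies below 0 for AOX1 and above 0 for MOCS2, MOCS3 and SUOX, for MOCS3 also without it.

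The genes that supply or accompany the pathway were described from lists chosen by function, and the counts below stand against the shares of all genes called in each fit, which are given with the 7 genes above. Among 3 genes of tRNA thiolation, which uses the same sulfur-loading enzyme MOCS3, URM1 fell and CTU1 and CTU2 were not called. URM1, a ubiquitin-like sulfur carrier, had 36.5, 37.4 and 40.3 CPM under control siRNA and 25.02, 26.004 and 25.1 CPM under INO80 siRNA. The groups were well separated, and edgeR gave -0.58 on the log2 scale (standard error 0.0726, adjusted p = 0.0105). URM1 was not called in 4 of 6 fits with a single library removed (control siRNA replicates 2 and 3, INO80 siRNA replicates 2 and 3). CTU2 and CTU1, which form the thiolase, had log2 fold changes of 0.17 and 0.06.

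Among 5 electron carriers that serve molybdenum enzymes, CYB5B was the only gene called. CYB5B, a cytochrome b5 of the mitochondrial outer membrane that passes electrons to the amidoxime reducing components, had 118.4, 143.0 and 141.7 CPM under control siRNA and 86.7, 100.5 and 96.6 CPM under INO80 siRNA. All INO80 siRNA libraries were below all control siRNA libraries. In edgeR its log2 fold change was -0.51, with a standard error of 0.0898 and an adjusted p of 0.0377, and of 6 fits with a single library removed only that without control siRNA replicate 1 called it. CYB5R3, the reductase before it, had a log2 fold change of 0.23, with edgeR adjusted p-values of 0.115 without and 9.67e-05 with the replicate block, which also called CYB5R1 higher (0.18). CYCS, the cytochrome c that accepts electrons from SUOX, had a log2 fold change of 0.06.

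Of 12 genes of sulfur and iron-sulfur supply, 0 were called in edgeR and 4 had an unadjusted p under 0.05. DESeq2 called 3, all lower, against 3.61% of the genes to which it gave an adjusted p. GLRX5 and ISCU, the most abundant per length, had log2 fold changes of 0.09 (adjusted p = 0.649) and -0.33 (adjusted p = 0.1, edgeR). The genes called by DESeq2 included ISCU and MPST, a sulfurtransferase named after its values were seen, which had a log2 fold change of -0.32 in edgeR. With the replicate block the 3 genes were called lower, and FDX1 and NFS1, a ferredoxin and the cysteine desulfurase, were called higher, where the block called 13.4% of all genes lower and 11.4% higher. The median of the list was 0.02.

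Of 13 genes of sulfur amino acid breakdown and sulfate transport, 10 were tested, and SLC26A2, a sulfate transporter, was called. Its level was 110.4 ± 3.28 CPM with control siRNA and 85.0 ± 7.33 CPM with INO80 siRNA (SD, n = 3 for both). In edgeR this was -0.38 on the log2 scale, with a standard error of 0.0734 and an adjusted p of 0.0472, and no fit that left out a single library called it. The transaminases GOT2 and GOT1 had log2 fold changes of -0.08 and 0.06. CDO1, the cysteine dioxygenase that starts the route to sulfite, had a mean of 0.167 counts. With the replicate block SQRDL was called lower as well (-0.19).

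Of 17 genes of purine breakdown and urate transport, 13 were tested and 0 were called in edgeR, with 1 at an unadjusted p under 0.05 and 0 called by DESeq2. HPRT1 and APRT, which salvage purine bases before they reach XDH, had log2 fold changes of 0.05 and -0.13. With the replicate block 2 of the 13 were called lower, ADK (-0.26) and NT5C2 (-0.16), and ADK also without replicate 1. GDA, AMPD1 and SLC22A12 had no count in any library.

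Of 32 partners of gephyrin at synapses, 17 were tested and 9 had no count in any library. Those at 0 were all GABA type A receptor subunits. GLRB, the glycine receptor subunit that gephyrin binds, was expressed at 3.18 FPKM under control siRNA and 3.71 FPKM under INO80 siRNA, with a log2 fold change of 0.21 (adjusted p = 0.426, edgeR). ENAH, an actin regulator, was the only gene called in edgeR with treatment only over all libraries. Its level was 711.2 ± 32.1 CPM with control siRNA and 552.5 ± 34.4 CPM with INO80 siRNA (SD, n = 3 for both). In edgeR this was -0.36 on the log2 scale, with a standard error of 0.066 and an adjusted p of 0.0407, and of 6 fits with a single library removed only that without INO80 siRNA replicate 1 called it. PFN1 and DYNLL1, a profilin and a dynein light chain, had log2 fold changes of 0.00 and -0.04. With the replicate block 5 of the 17 were called lower, among them ENAH, PFN2 (-0.32) and KIF5B (-0.14), and 2 higher, NLGN2 (0.24) and DYNLL2 (0.10), against 13.4% and 11.4% of all genes. DESeq2, the fit without a filter on low counts and the fit without replicate 1 each called PFN2 lower as well as ENAH. GLRB and the genes given here for their block calls, other than ENAH, were named after their values were seen.

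**Figure D4:**
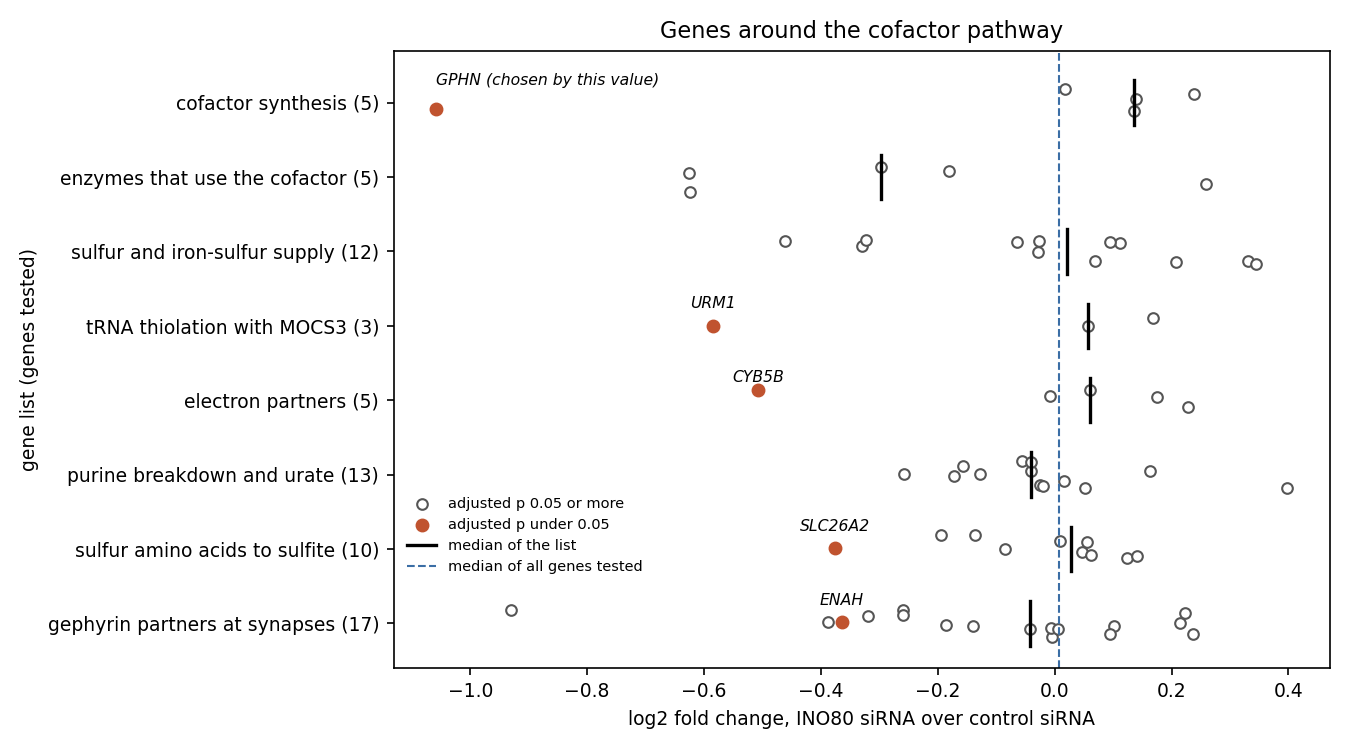
Log2 fold change between INO80 siRNA and control siRNA (x axis) of the tested genes in 8 lists around the cofactor pathway (y axis, number tested in brackets), with filled points for an adjusted p under 0.05 (edgeR), black bars for list medians and a dashed line for the median of all genes tested, 0.01. The called genes besides GPHN are URM1, CYB5B, SLC26A2 and ENAH, all lower.

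The pattern of GPHN over the 6 libraries was most like that of PARP2, SENP6, AAGAB, COPZ1 and MRPL51, with Pearson correlations of log2 CPM between 0.996 and 0.999. The 6 points form 2 groups, which differ in treatment and also in depth, and 644 of the 15342 other genes tested (4.2%) had a correlation of at least 0.9. The 5 genes, all called lower in edgeR, had log2 fold changes of -0.42, -0.29, -0.70, -0.58 and -0.60 in that order. They were picked for likeness to a gene chosen for its fall, so their fall largely follows from that choice. Of all genes tested 1.49% were called lower in edgeR. In the same comparison the 7 genes chosen by function had correlations between -0.83 (MOCS3) and 0.52 (AOX1). Over the 6 deviations from the group means the correlations with GPHN were -0.90 for AOX1, -0.77 for XDH, -0.45 for MOCOS, 0.08 for SUOX, 0.11 for MOCS2, 0.19 for MOCS1 and 0.82 for MOCS3, the last opposite in sign to its value over the libraries. Replicate 1 held the highest AOX1 and the lowest GPHN of each group. The 6 deviations are not independent, since they cancel within each group and are partly shared by replicate number. Large correlations of either sign can arise from replicate 1 alone, and their share over all genes was not computed.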

How the data were processed

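Libraries of poly(A)-selected RNA were prepared with a directional kit and read in pairs on a HiSeq instrument. The authors deposited raw read counts per gene, without normalization, and FPKM values, which equal the count divided by exonic length and library total in 347430 of 347430 cells (within 0.01). The submitters' processing notes name HISAT2 2.0.1, HTSeq and hg19, whereas the paper names ELAND and hg38. Gene coordinates in the table are those of GRCh37, and the strand setting of the counting is not given in the sources used here. Counts were compared in R 4.3.3 with edgeR 4.0.16 (filterByExpr, TMM, quasi-likelihood test, treatment only), with Benjamini-Hochberg adjustment over 15343 genes tested. A gene was called at an adjusted p under 0.05. Standard errors were derived from the F statistic, and 95% intervals use the degrees of freedom of the model. The deposited FPKM served for levels between genes and, on log2 with a pseudocount, for limma 3.58.1 as an alternative. DESeq2 1.42.0, other filters and scalings, the replicate block and left-out libraries were further alternatives.

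Across genes, the deviations from the group means correlated at 0.569, 0.351 and 0.349 between libraries that share a replicate number. Between replicates 2 and 3 of different groups they correlated at 0.151 and 0.135. The numbers were therefore taken to pair the libraries in the block fit and in the replicate pairs, less clearly for replicates 2 and 3. The main edgeR fit used treatment only and leaves this pairing out, so calls that differ with the block are given beside it. The check on simulated data recovered 200 of 200 genes changed 4-fold among 15343, with and without the block. It held no smaller changes and drew the changed genes from those with ample counts. It therefore cannot tell how well changes of the size seen in the cofactor genes are found. The members and lists were chosen with earlier results of these data known. Named were the 8 members, INO80, genes of each list that were called and, where fewer than 2 were, its 2 most abundant by mean FPKM, the 3 nearest tested genes on each side of GPHN and the 5 genes most like it. Values of some single genes in the lists are not reported here.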

Additional observations from a re-analysis of the deposited data

How the results depend on the processing

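The number of all genes called, 268 in edgeR, was 708 without a filter on low counts, 610 in DESeq2, 3798 with the replicate block, 82 and 60 in limma on log2(FPKM + 0.1) and log2(FPKM + 1), and 18 to 146 with single libraries left out, or 528 without both libraries of replicate 1. Of the 7 cofactor genes chosen by function 0 were called in edgeR, 3 with the replicate block, 1 without replicate 1 and 0 in every other alternative. XDH had no adjusted p in DESeq2 and was not tested under the filter on a mean FPKM of at least 1. With GPHN, which was chosen by its call and adds no evidence, the counts were 1, 4 with the block, 2 without replicate 1, 0 in both limma fits and 0 to 1 with single libraries left out. The log2 fold change of GPHN ranged from -1.14 to -0.66, the latter on the log2(FPKM + 1) scale, which understates changes of low genes. MOCOS turned to -0.04, -0.00235 and -0.0463 without control siRNA replicate 3, INO80 siRNA replicate 1 and INO80 siRNA replicate 2, within a range of -0.0463 to 0.0989 with single libraries left out. With the replicate block the counts of called genes were 2 for cofactor synthesis (GPHN included), 2 for the enzymes, 5 for sulfur and iron-sulfur supply, 3 for electron partners, 2 for purine breakdown, 2 for sulfur amino acids and 7 for gephyrin partners, while tRNA thiolation stayed at 1. Both limma fits gave 0 for cofactor synthesis, electron partners, sulfur amino acids and gephyrin partners. Without a filter and in DESeq2, sulfur and iron-sulfur supply had 3 and gephyrin partners 2. With single libraries left out these counts ranged from 0 to 1. Without replicate 1 they were 1 for the enzymes, 1 for purine breakdown and 2 for gephyrin partners. INO80 was called in all 14 alternatives, at -1.98 to -1.47. The cause of these shifts was not tested. With 8 to 25 counts per library, depth limits XDH.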
